A study of Mus musculus with 35 samples.

Results

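Perineuronal net and tenascin genes, taken here as Acan, Bcan, Ncan, Vcan, Hapln1, Hapln4, Tnr, Tnc, Tnn and Ptprz1, were read as 10 of the 32544 gene symbols counted in mouse hippocampus after intra-amygdala kainic acid (IAKA). All 10 symbols had a row in the counts. Per the study's methods, the animals were male C57BL/6JOlaHsd mice of 7 to 9 weeks, and no transgene is named. Each received kainic acid, a glutamate receptor agonist that triggers status epilepticus, or PBS through a cannula over the amygdala, and the methods give lorazepam afterwards to limit seizures. Hippocampi were taken after 24 hours, the acute phase, or after 2 weeks, when mice of this model have spontaneous seizures, so that the comparisons ask how these transcripts differ from PBS in each phase. One library was made from total RNA (input) and another from RNA pulled down with an antibody against m6A (IP), a methylated adenosine of messenger RNA, although some mice had only one of them. For m6A there were 5 libraries after IAKA and 3 after PBS at 24 hours, with 6 and 5 at 2 weeks. For input, libraries of at least 100000 counts numbered 3 after IAKA and 1 after PBS at 24 hours, with 6 and 3 at 2 weeks. These 32 of 35 libraries were used. Where values are listed below, a number after "mouse" is the label of the animal.

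Perineuronal nets are lattices of extracellular matrix that wrap the soma and proximal dendrites of certain neurons, most of all the fast-spiking parvalbumin interneurons. Hyaluronan forms the backbone, lecticans (aggrecan, brevican, neurocan and versican, from Acan, Bcan, Ncan and Vcan) bind to it, and link proteins (Hapln1, Hapln4) fasten that bond. Trimers of tenascin-R (Tnr) join the far ends of the lecticans. Tenascin-C (Tnc) is a matrix protein of development and of reactive astrocytes, tenascin-N (Tnn, also called tenascin-W) is best known from bone and tumour stroma, and Ptprz1 encodes a receptor phosphatase and its shed chondroitin sulphate form, phosphacan.

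Several of the genes are neighbours in the mouse genome (RefSeq, GRCm38.p6, which is the mm10 build named in the processing notes). Ncan (chr8:70093085-70120863) and Hapln4 (chr8:70083529-70090862) lay 2222 bp apart, and Vcan (chr13:89655309-89743027) and Hapln1 (chr13:89540529-89611832) lay 43476 bp apart. Tnr (chr1:159523729-159931729) and Tnn (chr1:160085029-160153692) were separated by 153299 bp. In the GENCODE M39 annotation Ncan and Hapln4 overlap on opposite strands. Vcan overlaps Gm16318 and Hapln1 overlaps Gm8546, also on opposite strands, and both of these genes are in the counts. The sources used here do not say whether the counting used strand, so reads of these overlaps cannot be assigned to one gene of a pair.

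The 250 bases before the start of 4 genes are shown, because those genes had the largest fitted m6A differences at 24 hours in each direction. All are RefSeq sequences of GRCm38.p6 written 5′ to 3′ on the strand of the gene. Capitals mark a match to TATANA on either strand, and N is any base.
Tnn, minus strand, chr1:160153576-160153825: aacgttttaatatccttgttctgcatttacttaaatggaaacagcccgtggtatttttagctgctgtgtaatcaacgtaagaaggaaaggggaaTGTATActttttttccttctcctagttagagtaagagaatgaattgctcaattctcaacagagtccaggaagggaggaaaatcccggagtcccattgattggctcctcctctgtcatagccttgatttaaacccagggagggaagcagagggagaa
Tnc, minus strand, chr4:64046937-64047186: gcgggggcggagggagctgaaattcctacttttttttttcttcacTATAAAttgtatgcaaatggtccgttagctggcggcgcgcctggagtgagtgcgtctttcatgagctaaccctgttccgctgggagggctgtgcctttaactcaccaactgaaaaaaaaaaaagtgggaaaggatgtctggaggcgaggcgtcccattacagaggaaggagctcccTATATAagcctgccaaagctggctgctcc
Bcan, minus strand, chr3:88000357-88000606: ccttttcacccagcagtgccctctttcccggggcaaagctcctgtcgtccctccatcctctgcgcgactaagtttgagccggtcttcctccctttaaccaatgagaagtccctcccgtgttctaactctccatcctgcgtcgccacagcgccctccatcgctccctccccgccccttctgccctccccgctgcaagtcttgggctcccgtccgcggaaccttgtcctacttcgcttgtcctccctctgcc
Hapln1, plus strand, chr13:89540386-89540635: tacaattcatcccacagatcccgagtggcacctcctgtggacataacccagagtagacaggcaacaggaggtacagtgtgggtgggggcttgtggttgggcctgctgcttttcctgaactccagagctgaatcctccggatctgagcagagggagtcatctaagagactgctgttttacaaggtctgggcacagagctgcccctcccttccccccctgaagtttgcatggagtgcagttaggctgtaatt
The windows begin before one annotated start of each gene. The Tnc window held TATAAA at -205 and TATATA at -29 from the start, and the Tnn window held 1 match on the opposite strand at -156. The window before another annotated Tnc start, chr4:64047016-64047265, is not shown and held 1 match, TATAAA at -126. Of 32851 promoters in the table, 22.6% held TATANA. None of the 4 windows held TGANTCA (AP-1, in 6.75% of all promoters), TGACGTCA (CRE, 1.55%), TTCNNNGAA (STAT, 7.02%) or GCGTGGGCG (Egr1, 0.536%), all searched on both strands. The windows of 9 of the 10 genes were in the table, and Hapln4 was not among them.

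The libraries were uneven, and this bears on the values that follow. Total counts ran from 1652933 to 34564536 in the 19 m6A libraries and from 3057578 to 12694434 in the 13 input libraries used. The column names of m6A libraries carry a prefix of 3, 4 or 5, whose meaning is not given in the sources used here. At 24 hours, prefix 3 held 3 IAKA libraries, prefix 4 held 2 IAKA and 2 PBS libraries, and prefix 5 held 1 PBS library. At 2 weeks, prefix 3 held 3 IAKA libraries, prefix 4 held 2 PBS libraries, and prefix 5 held 3 of each. Input columns of IAKA mouse 8 at 24 hours and IAKA mice 6, 7 and 9 at 2 weeks begin with the word Input. The other input libraries used, among them all PBS ones, have columns without a prefix. In fits of input, that word is the prefix taken as a block. Both libraries of IAKA mouse 8 at 24 hours stood apart, with 28496 (m6A) and 28574 (input) genes detected against 16813 to 27003 in the other libraries used. That mouse also had a summed level of 8 astrocyte markers of 844 CPM, which are counts scaled to the total of each library in m6A, where the 3 PBS libraries had 2911 to 3498 CPM.

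Levels of the genes spanned a wide range in control tissue. Per kilobase of the canonical transcript, Ptprz1 was highest in the 5 m6A libraries of PBS mice at 2 weeks (34.2 ± 7.66 CPM per kb, SD). The next 3 genes were Tnr (18.9 ± 5.67 CPM per kb), Ncan (17.3 ± 7.06 CPM per kb) and Bcan (15.3 ± 8.75 CPM per kb). Their ranges overlapped one another, so that their order was not settled by the spread. Hapln4 (6.73 ± 4.58 CPM per kb), Vcan (4.41 ± 0.277 CPM per kb) and Hapln1 (4.14 ± 0.911 CPM per kb) formed a middle tier, again with overlapping ranges. Tnc (1.24 ± 0.579 CPM per kb) and Acan (0.841 ± 0.402 CPM per kb) were low and overlapped, and Tnn (0.0682 ± 0.0801 CPM per kb) lay under every Acan value. The 3 input libraries of PBS mice at 2 weeks gave the same leading 4 genes in the same order, from Ptprz1 (20.9 ± 4.62 CPM per kb) to Bcan (9.11 ± 2.50 CPM per kb). In input, Hapln1 (4.45 ± 0.109 CPM per kb) came before Hapln4 (3.21 ± 0.797 CPM per kb) and Vcan (3.12 ± 0.0636 CPM per kb). The markers of parvalbumin and other inhibitory neurons, which include the neurons that carry nets, summed to 501 to 569 CPM in those 3 libraries.

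**Figure D1:**
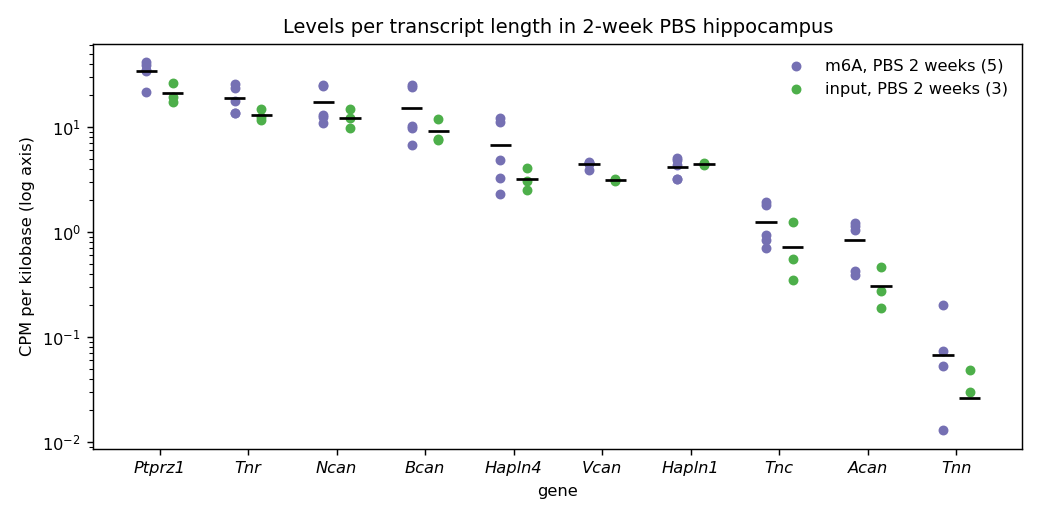
CPM per kilobase of canonical transcript (log axis) of the 10 genes in m6A (5 libraries) and input (3 libraries) of PBS mice at 2 weeks, with each point a library and each bar the group mean. The genes fall from Ptprz1 at 34.2 CPM per kb to Tnn at 0.0682 CPM per kb in m6A, and 1 Tnn library of each assay had no count and cannot be drawn on this axis.

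In m6A-bound RNA at 24 hours, Tnn and Tnc were the genes furthest above their controls and Bcan and Hapln1 those furthest below. No gene of the 10 passed the adjusted P threshold in the edgeR quasi-likelihood fit, in which 1 of 16470 genes did (0.00607%). At an unadjusted P under 0.05 there were 5 of the 10, with 3 higher (Acan, Tnc, Tnn) and 2 lower (Bcan, Hapln1), where the share over all genes was 5.31% (4.02% higher and 1.29% lower). The 10 genes were chosen with earlier results of these data known, so such shares here and below are a description and no test. DESeq2 called 1 of the 10, Tnn, among 132 of 17143 genes (0.77%). The median log2 difference over the 10 genes was -0.10 against 0.08 over all genes tested. In bulk tissue fewer cells of a type and less RNA per cell cannot be told apart, and a difference in m6A libraries can come from the amount of the transcript as well as from its methylation.

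Tnn had the largest difference of the 10 genes in the m6A libraries at 24 hours. Its level was 4.55, 5.44, 13.7, 10.9 and 6.90 CPM in IAKA mice 67, 98, 97, 79 and 8, against 0.753, 0.286 and 0.443 CPM in PBS mice 71, 73 and 1. All 5 IAKA libraries were above all 3 PBS libraries, the only one of the 10 genes whose groups did not overlap (3.71% of all genes tested). The log2 fold change was 4.04 (standard error, SE, 0.54) with an edgeR P of 1.90e-05 and an adjusted P of 0.083. Tnn passed the filter on low counts through the IAKA libraries where it was high, since the 3 PBS libraries held 21, 4 and 6 counts and only 1 of them reached the filter's level. The count of genes at an unadjusted P under 0.05 above therefore holds Tnn by construction, and its P values and calls here describe a gene that was bound to differ. Within prefix 4, where both treatments were present, the log2 fold change was 4.31 with an edgeR adjusted P of 0.00709, and 356 of 16903 genes (2.11%) passed in that comparison of 2 against 2 libraries. Of the 10 genes, 4 passed there, with Tnn and Tnc higher (1.47% of all genes were called higher) and Bcan and Hapln1 lower (0.639%). This fit within prefix 4, used again below, was added after the data were seen. The planned fit with the prefix as a block called none of the 10, and its treatment difference comes from the same prefix 4 libraries. The call also changed with mouse 8, without whose library the edgeR adjusted P was 0.0175 and the log2 fold change 4.04, with 0.279% of genes called. Tnn was also called with library size scaling (0.0182% of genes called), no filter (0.0739%), all 4 m6A groups in 1 fit (0.178%) and without mice 8, 67 and 98 (0.0426%), and it was not called with the prefix as a block or without mice 67 and 98. Over all alternatives the Tnn difference ran from 3.81 to 4.46, and the adjusted P from 3.34e-09 to 0.638.

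Tenascin-C (Tnc) reached 44.5, 19.96, 40.1, 36.7 and 12.1 CPM in IAKA mice 67, 98, 97, 79 and 8 at 24 hours. The PBS libraries held 14.9, 14.5 and 3.17 CPM, so that 4 of the 5 IAKA libraries were above every PBS library and mouse 8 was not. The log2 fold change was 1.42 (SE 0.52, edgeR adjusted P 0.750). Within prefix 4 the Tnc values were 36.7 and 40.1 CPM against 14.5 and 14.9 CPM, a log2 fold change of 1.27 with an edgeR adjusted P of 0.0184. Reactive astrocyte markers moved with Tnc, and their 8 genes, none of them called, summed to 496 to 3139 CPM in IAKA and 330 to 633 CPM in PBS libraries, with mouse 8 lowest of the IAKA libraries for both, and their part in the Tnc difference was not tested. Tnr, the tenascin of the mature net, was at 65.9 to 267 CPM (median 251 CPM) in IAKA and 178 to 285 CPM in PBS (log2 fold change -0.22, SE 0.36, edgeR adjusted P 0.983).

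Hapln1 and Hapln4 are the link proteins of the set, and the difference between them was not tested. At 24 hours Hapln1 was at 13.6, 8.47, 5.94, 6.97 and 9.13 CPM in IAKA mice 67, 98, 97, 79 and 8, and at 14.4, 12.1 and 29.6 CPM in PBS mice 71, 73 and 1. Only IAKA mouse 67 reached into the PBS range, and the log2 fold change was -1.10 (SE 0.39, edgeR adjusted P 0.717). Within prefix 4 it was -1.15 with an edgeR adjusted P of 0.0402. Leaving out PBS mouse 1 moved the Hapln1 difference to -0.61, since that library held the highest value. Hapln4 was at 12.02 to 45.4 CPM in IAKA and 17.9 to 42.1 CPM in PBS, with a log2 fold change of -0.18 (SE 0.38, edgeR adjusted P 0.985) that turned to 0.06 without PBS mouse 73.

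Among the lecticans at 24 hours, Bcan and Acan lay on opposite sides of 0. Bcan, a lectican of the adult brain made largely by glia, was at 46.5, 38.7, 37.0, 28.1 and 7.35 CPM in IAKA mice 67, 98, 97, 79 and 8, against 81.9, 112 and 39.6 CPM in PBS mice 71, 73 and 1. Of the IAKA values, 4 lay below every PBS value. The log2 fold change was -1.42 (SE 0.47, edgeR adjusted P 0.630), and within prefix 4 it was -1.72 with an edgeR adjusted P of 0.0284. Markers of several cell types lay below 0 in the same comparison, with none called. These were 6 of 8 astrocyte markers (median -0.41), 6 of 7 oligodendrocyte markers (median -0.43) and 7 of 7 excitatory neuron markers (median -0.65), with summed levels of 783 to 3470 CPM in IAKA and 2267 to 5178 CPM in PBS for the last. Inhibitory neuron markers had 6 of 9 below 0 (median -0.18) and oligodendrocyte precursor markers 4 of 7 (-0.02). Above 0 were 8 of 8 reactive astrocyte (median 2.23), 6 of 8 microglia (0.31), 5 of 7 endothelial and mural (0.34) and 4 of 7 fibroblast markers (0.26). So were 5 of 5 choroid plexus (1.45), 5 of 5 infiltrating myeloid (1.47) and 3 of 5 thalamus markers (0.07). The part of any of these cells in the Bcan difference was not tested. Acan, the lectican that defines nets around neurons, was at 14.1, 4.84, 15.1, 25.2 and 8.01 CPM in IAKA and at 5.56, 8.80 and 3.69 CPM in PBS libraries. In 3 IAKA libraries Acan was above the PBS range, and the log2 fold change was 1.13 (SE 0.48, edgeR adjusted P 0.893). Ncan held 250, 183, 278, 280 and 48.8 CPM against 154, 208 and 73.0 CPM, with mouse 8 at the bottom and 3 IAKA libraries above every PBS library (log2 fold change 0.42, SE 0.48, edgeR adjusted P 0.983). The Ncan difference was 0.10 without PBS mouse 1 and 0.83 without PBS mouse 73. Vcan was at 39.9 to 87.8 CPM in IAKA and 49.1 to 71.4 CPM in PBS (log2 fold change -0.02, SE 0.28), a difference that changed sign with the scaling by library size (0.02) and within prefix 4 (0.48). Ptprz1, the receptor of the set, was at 107 to 315 CPM against 244 to 359 CPM (log2 fold change -0.39, SE 0.28, edgeR adjusted P 0.983).

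**Figure D2:**
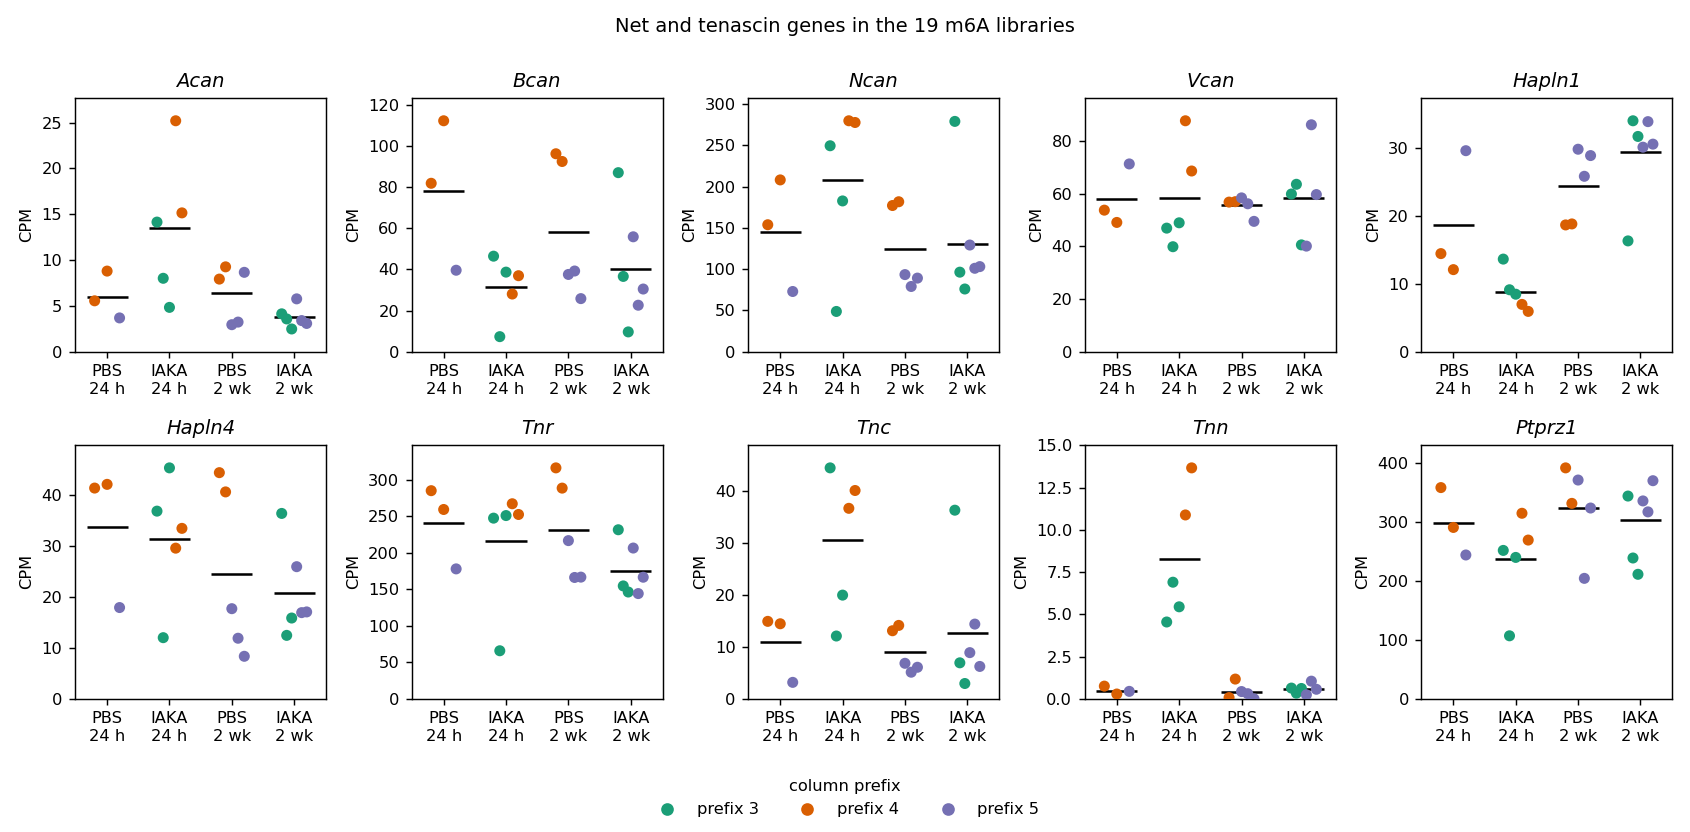
CPM of each of the 10 genes in the 19 m6A libraries, with each point a library of 1 mouse, its colour the prefix of the column name and each bar the group mean, on linear axes that start at 0. Tnn is at 4.55 to 13.7 CPM in all 5 IAKA libraries at 24 hours and at or below 1.17 CPM in every other m6A library, while for Bcan the PBS libraries of prefix 4 stand above those of prefix 5.

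The prefix moved with the level of several net genes in PBS mice. Over both time points, Bcan was at 81.9 to 112 CPM in the 4 PBS libraries of prefix 4 and at 25.8 to 39.6 CPM in the 4 of prefix 5. Hapln4 was at 40.7 to 44.4 CPM against 8.36 to 17.9 CPM in the same libraries, and Ncan at 154 to 208 CPM against 73.0 to 93.5 CPM. Tnc was at 13.1 to 14.9 CPM against 3.17 to 6.84 CPM. Tnr was at 259 to 316 CPM against 166 to 217 CPM. Hapln1 went the other way, at 12.1 to 18.8 CPM in prefix 4 and 25.8 to 29.8 CPM in prefix 5. For these 6 genes the 2 sets of PBS libraries did not overlap. With the prefix as a block in the fit at 24 hours the log2 fold changes were 4.38 for Tnn, 1.26 for Tnc, -1.71 for Bcan and -1.15 for Hapln1, with none of the 10 genes called. At 24 hours only prefix 4 held both treatments. These differences therefore come from the same libraries as those within prefix 4 and are no separate check.

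Total RNA at 24 hours rested on 1 PBS library, that of mouse 1. The edgeR fit over the 13 input libraries called 0 of 17644 genes (0.0%) and none of the 10, with 2 of the 10 (Hapln1, Tnn) at an unadjusted P under 0.05 where all genes had 9.23%. Tnn reached the level of the filter on low counts in IAKA libraries only, so its place among the 2 is no support. DESeq2 called 165 of 15082 genes (1.09%), among them Hapln1. For 3 of the 10 genes (Tnc and Tnn higher, Hapln1 lower) all IAKA libraries were on one side of the single PBS value, as they were for 44.0% of all genes. Scaling by library size alone lowered the median log2 difference of all genes by 0.31 in this comparison, and with it the differences of Vcan, Hapln4 and Tnr turned from 0.05, 0.23 and 0.15 to -0.24, -0.05 and -0.12.

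Hapln1 in input was at 10.7, 9.21 and 12.4 CPM in IAKA mice 67, 98 and 8 and at 31.4 CPM in PBS mouse 1. The IAKA values were also below all 9 input libraries of 2 weeks, which ran from 19.7 to 29.7 CPM. The log2 fold change was -1.200 (SE 0.27, edgeR P 0.000534, adjusted P 0.304). Without mouse 8 it was -1.42 with an edgeR adjusted P of 0.0282 (1.18% of genes called), and DESeq2 gave -1.21 with an adjusted P of 0.0265. Tnc in input was at 30.9, 12.3 and 12.1 CPM against 4.73 CPM (log2 fold change 2.25, SE 1.09, edgeR adjusted P 0.566). Tnn was at 4.00, 6.14 and 8.47 CPM against 1.26 CPM (log2 fold change 2.62, SE 1.21, edgeR adjusted P 0.533), and all 3 IAKA values were above every input value at 2 weeks, where the highest was 2.05 CPM. With all 7 labelled input libraries of 24 hours, 3 of them of under 100000 counts, Tnn had an edgeR adjusted P of 0.0134, with 75 of 12858 genes called (0.583%). The added PBS libraries hold 4621 and 34486 counts in all, too few to expect a Tnn count at 1.26 CPM, and they had none, so this call does not bear on Tnn. Of the lecticans in input, Ncan was at 196, 175 and 73.6 CPM against 99.9 CPM and Bcan at 36.7, 40.2 and 7.87 CPM against 33.7 CPM, with mouse 8 lowest for both. Their log2 fold changes were 0.84 (SE 0.56) and -0.02 (SE 0.65), and without mouse 8 that of Bcan was 0.41.

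**Figure D3:**
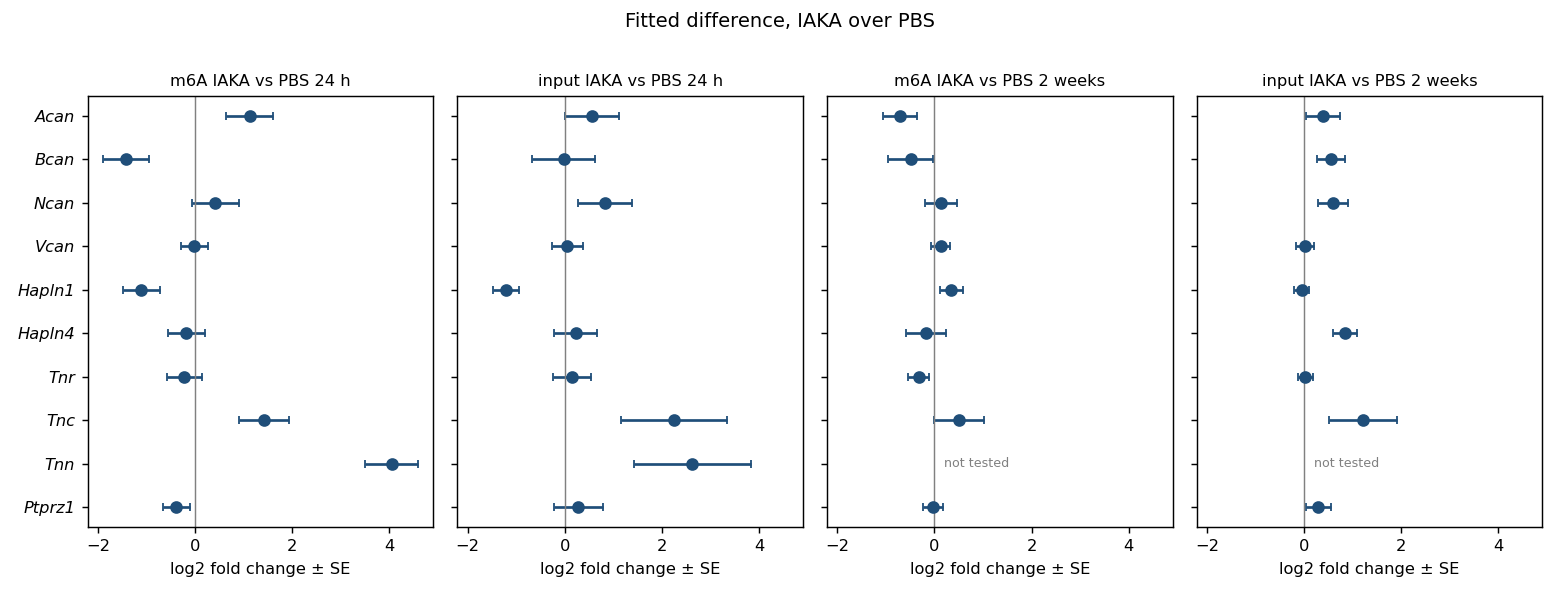
Fitted log2 fold change of IAKA over PBS with its standard error for the 10 genes in m6A and input libraries at each time, where 0 marks no difference. At 24 hours Tnn (4.04 in m6A, 2.62 in input) and Tnc (1.42 and 2.25) lie right of 0 and Hapln1 (-1.10 and -1.200) left of it in both assays, and Tnn fell below the filter on low counts at 2 weeks.

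At 2 weeks no net gene passed the threshold in m6A-bound RNA. The edgeR fit called 0 of 16157 genes (0.0%), so none of the 9 genes tested, and 0 of the 9 had an unadjusted P under 0.05 where all genes had 5.01%. DESeq2 called 18 genes over the table and none of the 9. No gene of the 9 had groups that did not overlap (0.594% of all genes). The largest difference was that of Acan, at 4.14, 3.58, 2.49, 5.77, 3.40 and 3.09 CPM in IAKA mice 42, 5, 6, 21, 7 and 9 and at 7.93, 9.26, 2.95, 3.24 and 8.66 CPM in PBS mice 50, 78, 2, 3 and 4. The Acan levels overlapped, although 3 PBS libraries were above every IAKA library (log2 fold change -0.71, SE 0.35, edgeR adjusted P 0.875). Of those PBS libraries, mice 50 and 78 are of prefix 4, which holds no IAKA library at 2 weeks. Within prefix 5 the Acan difference was -0.17, with means of 4.09 CPM in IAKA and 4.95 CPM in PBS. Bcan was at 9.65 to 87.1 CPM (median 33.6 CPM) in IAKA and 25.8 to 96.3 CPM in PBS (log2 fold change -0.48, SE 0.47), and within prefix 5 its difference was 0.17. Hapln4 had a difference of -0.17 (SE 0.41) that was 0.73 within prefix 5, and Ptprz1 one of -0.03 (SE 0.21) that was 0.26 there. Hapln1 was at 16.3 to 34.001 CPM (median 31.1 CPM) against 18.7 to 29.8 CPM, and these ranges overlapped (log2 fold change 0.35, SE 0.23).

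Tnn was near its control level in m6A at 2 weeks, at 0.240 to 1.05 CPM (median 0.591 CPM) in the 6 IAKA libraries and 0 to 1.17 CPM in the 5 PBS libraries. In PBS mouse 4 it had no count, which at that depth allows up to 0.456 CPM (3 counts). Tnc at 2 weeks was at 36.3 CPM in IAKA mouse 42 and between 2.95 and 14.4 CPM in the other 5 IAKA mice, against 5.13 to 14.1 CPM in PBS. Its log2 fold change of 0.51 (SE 0.52) was -0.16 without mouse 42. That mouse also had the highest Ncan of its group (279 CPM, others 76.0 to 129 CPM) and the lowest Hapln1 (16.3 CPM, others at least 30.1 CPM). Its 8 reactive astrocyte markers summed to 3173 CPM in m6A, where the other 5 IAKA libraries had 204 to 1085 CPM, and the part of those cells in its net transcripts was not tested. The Ncan difference at 2 weeks, 0.13 (SE 0.33), was -0.21 without mouse 42.

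Input libraries at 2 weeks gave 8 of 9 log2 differences above 0, where 52.4% of all genes were. Markers of several cell types lay on the same side in this comparison, none of them called. Above 0 were 8 of 8 microglia markers (median 0.86), 6 of 6 reactive astrocyte markers (median 1.72) and 6 of 8 astrocyte markers (median 0.40). So were 6 of 7 excitatory neuron markers (median 0.51) and 6 of 7 endothelial and mural markers (median 0.57). Oligodendrocyte precursors had 5 of 6 above 0 (median 0.59), oligodendrocytes 5 of 7 (0.23) and infiltrating myeloid cells 3 of 3 (0.14). The split was closer for parvalbumin and other inhibitory neurons, at 6 of 9 (median 0.07), and for fibroblast and meninges, at 4 of 7 (0.21). Choroid plexus and thalamus markers were each at 3 of 5 (0.27 and 0.03). The microglia markers summed to 119 to 283 CPM in IAKA and 89.5 to 129 CPM in PBS, and the reactive astrocyte markers to 590 to 2597 CPM and 194 to 271 CPM. Their part in the net genes' differences was not tested. None of the 9 was called, as 0 of 13752 genes were by edgeR (0.0%), and 113 genes, none of the 9, were by DESeq2. At an unadjusted P under 0.05 there was 1 of 9, Hapln4, where all genes had 14.1%. Hapln4, a link protein of adult nets that partners brevican, was at 26.5, 28.8, 13.1, 19.6, 20.8 and 15.7 CPM in IAKA mice 42, 21, 5, 7, 9 and 6. It was at 14.9, 9.12 and 11.2 CPM in PBS mice 2, 3 and 4, and only IAKA mouse 5 fell inside that range. None of the 9 genes had groups that did not overlap, where 6.44% of all genes did. The log2 fold change was 0.85 (SE 0.25, edgeR P 0.00424, adjusted P 0.266), and it was 1.02 among the 6 libraries whose columns carry no prefix. Tnc was at 2.29 to 31.8 CPM (median 8.56 CPM) against 2.57 to 9.11 CPM (log2 fold change 1.21, SE 0.70), and mouse 42 was again the highest. Without that mouse the Tnc difference was 0.69 and that of Ncan 0.32. Ncan was at 77.3 to 235 CPM against 69.9 to 106 CPM (log2 fold change 0.60, SE 0.30) and Bcan at 27.1 to 79.1 CPM against 28.8 to 45.8 CPM (log2 fold change 0.55, SE 0.29). Vcan, Hapln1 and Tnr had differences of 0.02 (SE 0.19), -0.04 (SE 0.16) and 0.03 (SE 0.16).

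Whether the m6A difference changed between the phases was tested as an interaction over the 19 m6A libraries. None of the 10 genes was called, among 1 of 17440 genes (0.00573%), and 3 of the 10 had an unadjusted P under 0.05 where all genes had 2.45%. DESeq2 called 5 genes, none of the 10. The difference at 2 weeks minus that at 24 hours was -3.41 for Tnn (SE 0.94, edgeR P 0.00168), 1.47 for Hapln1 (SE 0.43, P 0.00298) and -1.84 for Acan (SE 0.60, P 0.00601). The edgeR adjusted P was 1.00 for all 3. Tnn was too low to be tested at 2 weeks alone and came into this test mainly through the 24-hour IAKA libraries, so its place among the 3 is no support. The fit takes no account of the prefix, which was spread unevenly over groups and times. PBS levels of Hapln1 separated by prefix, as given above. For Acan the m6A difference at 2 weeks was -0.71 over all libraries and -0.17 within prefix 5.

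The pulldown itself was compared with input in PBS mice at 2 weeks, 5 libraries against 3. In this m6A group, mice 50 and 78 are of prefix 4 and have no labelled input library, so assay and prefix are mixed. Of 15128 genes, 170 were called by edgeR (1.12%), none of the 9 net genes tested, with 1 of the 9 (Acan) at an unadjusted P under 0.05 where all genes had 16.9%. Vcan alone of the 9 had groups that did not overlap, against 19.8% of all genes. Over all genes 57 were called with the mouse as a replicate block on the 3 mice with both libraries. On those mice without the block, the differences of Bcan, Ncan, Hapln4, Tnr and Tnc turned from above to below 0. Those of Acan, Vcan, Hapln1 and Ptprz1 kept their sign. Scaling by library size alone raised the median of all genes by 0.24 here, and turned the split of calls from 56 higher and 114 lower to 248 higher and 95 lower. Acan had the largest difference, 1.205 (SE 0.53, edgeR adjusted P 0.285), at 2.95 to 9.26 CPM in m6A and 1.43 to 3.55 CPM in input. In the same 3 mice the 2 assays gave Acan ratios on the log2 scale of -0.23, 0.96 and 1.82. Vcan was higher in the m6A library than in the input of the same animal in 13 of 13 mice, by 0.51 ± 0.27 (SD) on the log2 scale with 0.5 CPM added. Ptprz1 (0.43 ± 0.27) and Tnr (0.15 ± 0.14) were above 0 in 12 of 13 mice. For scale, the median log2 difference over all genes was 0.31 with library size scaling in the PBS comparison above. The Tnr mean lay below that median, and the share of all genes above 0 in as many mice was not counted. Hapln1 (0.09 ± 0.28), Ncan (-0.06 ± 0.28) and Hapln4 (0.03 ± 0.38) lay around 0. In these ratios no absolute enrichment is given, because both assays were scaled to their own totals.

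The letters GGACT, the commonest form of the m6A consensus, were counted in the canonical transcript of each gene (GENCODE M39). Acan held 24, or 3.15 per kb, above 98.1% of 21663 protein-coding transcripts, whose median was 1.01 per kb. Tnc held 17 (2.33 per kb) and Hapln4 held 7 (1.91 per kb). Hapln1 was at the other end with 2 (0.339 per kb, above 14.6% of transcripts), and Tnn with 6 (1.03 per kb) was near the median. A match is a description and not a measured site.

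**Figure D4:**
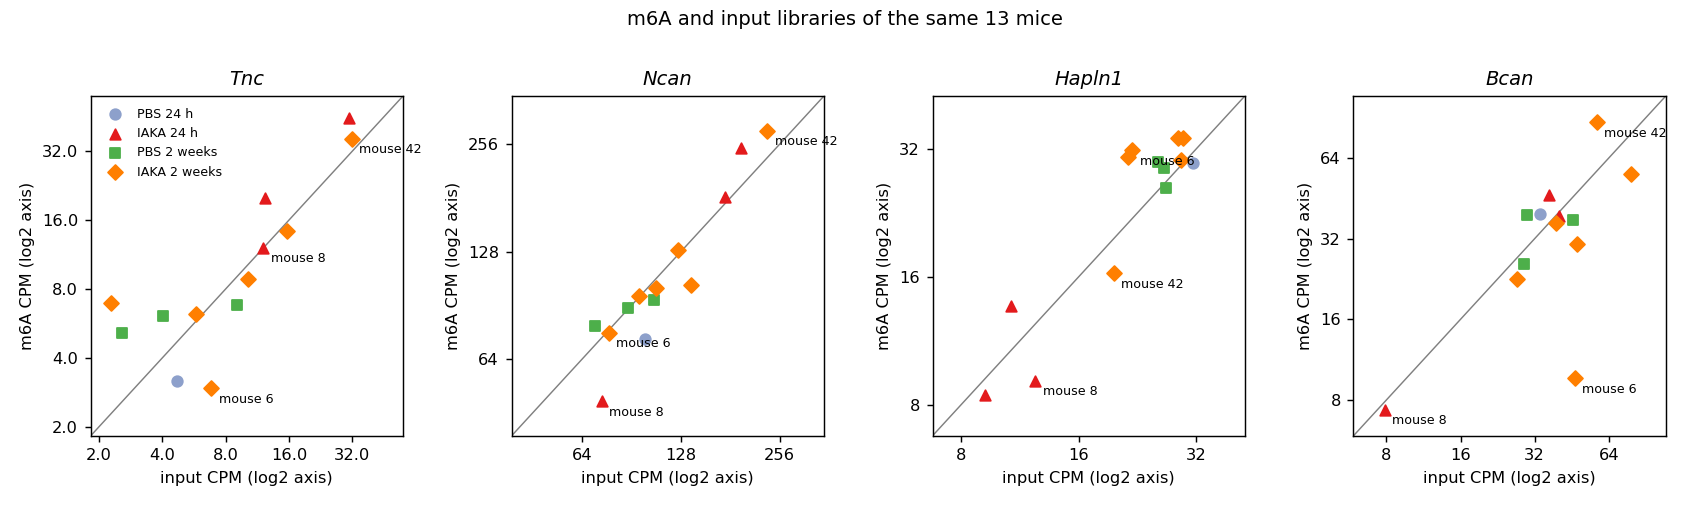
CPM in the m6A library against CPM in the input library of the same mouse (log2 axes, 13 mice, line of equality) for Tnc, Ncan, Hapln1 and Bcan. Mouse 42 lies high for Tnc (36.3 and 31.8 CPM) and Ncan (279 and 235 CPM) and low for Hapln1 (16.3 and 19.7 CPM) in both libraries, and mouse 6 departs from the line for Bcan (9.65 CPM in m6A, 46.6 CPM in input).

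Whether IAKA acted alike on both assays at 2 weeks was asked with an interaction of treatment and assay. None of the 9 genes was called, as 0 of 16141 genes were by edgeR (0.0%) and 2, none of the 9, by DESeq2. One of the 9, Acan, had an unadjusted P under 0.05 where all genes had 4.06%. The m6A difference minus the input difference was -1.13 (SE 0.53) for Acan, -1.05 (SE 0.65) for Bcan and -1.04 (SE 0.58) for Hapln4, with an edgeR adjusted P of 0.807 for each. Over all alternatives it ran from -1.48 to -0.68 for Acan, -1.42 to -0.27 for Bcan and -1.26 to -0.072 for Hapln4. PBS mice 50 and 78 had an m6A library of prefix 4 and no labelled input library. With the mouse as a replicate block 1 gene over the table was called, and again none of the 9. In this comparison m6A and input libraries of a mouse share the animal.

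The rest of the matrix machinery was read from 5 lists of 78 symbols, of which 77 had a row. None of their genes was called in any of the 7 comparisons by edgeR. In m6A at 24 hours, 9 of the 76 tested were higher and 2 lower at an unadjusted P under 0.05, where all genes had 4.02% higher and 1.29% lower, with a median log2 difference of 0.16 against 0.08 over all genes. Of the hyaluronan genes, 12 of 13 lay above 0 (median 0.37), and of the proteases that cut lecticans or tenascins with their inhibitors 12 of 14 did (median 0.47), where 58.0% of all genes were above 0. The enzymes of chondroitin sulphate synthesis had a median of 0.08 over 19 genes and the receptors and ligands of the net one of -0.16 over 21. The other proteoglycans with tenascin-X had a median of -0.28 over 9 genes.

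Genes of those lists with large m6A differences at 24 hours were picked after their values were seen, and those named are all higher. Of the 76 genes tested by edgeR, 47 lay above 0 and 29 below. The 2 that were lower at an unadjusted P under 0.05 are not named. Nptx2, a secreted pentraxin that gathers AMPA receptors on parvalbumin neurons, had a log2 fold change of 3.25 (SE 0.45, edgeR adjusted P 0.083). Cd44, the main hyaluronan receptor, had one of 2.68 (SE 0.43, edgeR adjusted P 0.103). Timp1, an inhibitor of matrix metalloproteinases, had one of 2.62 (SE 0.51, edgeR adjusted P 0.157). Has2, a hyaluronan synthase, was at 1.68 (SE 0.50) and Adamts1, a protease that cuts aggrecan and versican, at 1.97 (SE 0.59). At 2 weeks in input, 9 of 9 protease and inhibitor genes lay above 0 (median 0.27) and 5 of 9 hyaluronan genes did (median 0.08), with 0 of either at an unadjusted P under 0.05. Of the receptors and ligands, 15 of 21 lay above 0 (median 0.39), and at an unadjusted P under 0.05 there were 7 higher and 1 lower, where all genes had 8.41% higher and 5.69% lower. None of these passed the threshold.

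The genes whose m6A levels ran most like those of the 4 net genes with the smallest P were found by Pearson correlation of log2 CPM over the 19 m6A libraries, among 11959 genes of at least 5 CPM on average. Those nearest to Tnn were Ccl12 (r = 0.94), Msr1 (0.94) and Tm4sf1 (0.92). Among those nearest to Tnc were Tgm2 (0.94) and Scube1 (0.94). Bcan ran with Syt7 (0.95), Mfge8 (0.95) and Camkk1 (0.95), and Hapln1 with Ptn (0.95), Tprkb (0.95) and D3Ertd751e (0.94). Among the 10 genes, Ncan and Tnc ran together (r = 0.84), as did Bcan and Tnr (0.82), whereas Hapln1 ran against Tnn (-0.82) and Tnc (-0.76). Tnc had an r of 0.84 with Gfap, an astrocyte filament gene. All these points share their libraries, depth and prefix, so the values are a description without a test.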

How the data were processed

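Hippocampal total RNA (input) and m6A-immunoprecipitated RNA were sequenced with a stranded total RNA kit. Raw counts by gene symbol, 4 lanes to a library, are what the authors deposited, and the processing notes name mm10. Aligner, counter, annotation and strand setting: not given in the sources used here. Lanes were summed to 35 libraries, each of 1 mouse. In 8 libraries the column itself names the assay, and in 27 it was read from the prefix. Another 8 columns of mice with no such labelled library were not used, and 3 input libraries of under 100000 counts entered one alternative only.

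CPM used the total of each library. Comparisons used edgeR 4.0.16 (TMM, filterByExpr by group, robust quasi-likelihood, Benjamini-Hochberg threshold 0.05) in R 4.3.3 on the groups compared. Input at 24 hours was fitted with all 13 deep input libraries, so its lone PBS library was assumed to vary like the other groups. The SE is the absolute log2 fold change over the square root of F. Alternatives were DESeq2 1.42.0, library size scaling, no filter, the prefix as a block, the mouse as a replicate block, other sets of libraries, and each library left out. The fits within 1 prefix, and among input columns without one, were added after the data were seen. So were those without mice 67 and 98, with or without mouse 8, and the unblocked fit on mice with both libraries. The fits were tested on simulated data. Plots were drawn with matplotlib 3.10.9 in Python 3.11.15.

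The mouse number pairs input and m6A libraries because both carry the same animal in the labels. Over 11777 genes in the 9 mice of 2 weeks with both, deviations from the group means correlated at 0.01 to 0.66, and 7 of 9 m6A libraries correlated best with their own input.

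The 10 genes, the lists and the tests were chosen with earlier results of these data known. The 10 genes are always named. Of the other lists, up to 3 genes past the threshold per comparison would be named, and any other named gene is said to be picked with its values in view. Likeness takes the 3 genes of highest r, of which 1 is not reported here. Lengths and letters of transcripts came from GENCODE M39 and promoters from RefSeq. Levels at 0 counts allow up to 3 counts, which covers counting error only.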

Additional observations from a re-analysis of the deposited data

Results flagged for a closer look

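Of 40 pairs of a gene and a group of 4 to 10 libraries, 6 had 1 library far from the others by Dixon's criterion. Chance gives this in about 1 of 20 where values are independent and normal. The pairs here share libraries, and several of the 6 are of IAKA mouse 42, so the count cannot be set against that rate. In m6A at 2 weeks, IAKA mouse 42 held 279 CPM of Ncan (others 76.0 to 129 CPM), 36.3 CPM of Tnc (others 2.95 to 14.4 CPM) and 16.3 CPM of Hapln1 (others at least 30.1 CPM). In m6A at 24 hours, IAKA mouse 8 held 65.9 CPM of Tnr, where the other 4 libraries held 248 to 267 CPM. In m6A of PBS mice at 2 weeks, mouse 4 held 49.5 CPM of Vcan (others 56.2 to 58.5 CPM). In input at 2 weeks, IAKA mouse 7 held 2.05 CPM of Tnn (others 0 to 0.654 CPM).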

How the results depend on the processing

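Tnn had 4 to 21 counts in each PBS library of m6A at 24 hours, and the 24-hour input comparison had 1 PBS library. Of 1139 values of single genes under an alternative, 1046 kept their direction and side of the threshold, 13 newly passed it and 80 turned sign, none of which was called. The causes were not tested.

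The count of the 10 genes called was 0 in each main comparison. For m6A at 24 hours it was 1 (Tnn) with DESeq2, library size scaling, no filter, all 4 m6A groups in 1 fit, and without mice 8, 67 and 98, it was 4 within prefix 4 (Tnn and Tnc higher, Bcan and Hapln1 lower), and it was 0 to 1 when 1 library was left out (1 without IAKA mouse 8). For input at 24 hours it was 1 with DESeq2 (Hapln1), 1 with all labelled 24-hour libraries (Tnn), and 0 to 1 when 1 library was left out (Hapln1, without IAKA mouse 8). For the other 5 comparisons it was 0 under every alternative run.

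Over all genes, calls moved from 1 to 132 (DESeq2), 22 (no filter), 356 (within prefix 4), 31 (all 4 m6A groups), 7 (without mice 8, 67 and 98), 3 (library size) and 0 (prefix as a block, or without mice 67 and 98) for m6A at 24 hours, and between 0 and 45 when 1 library was left out. For input at 24 hours they moved from 0 to 165 (DESeq2), 75 (all labelled libraries), 3 (no filter), 2 (prefix as a block), 1 (library size) and 1 to 180 when 1 library was left out. For m6A at 2 weeks they moved from 0 to 18 (DESeq2), 2 (no filter) and 1 (all 4 m6A groups), for input at 2 weeks from 0 to 113 (DESeq2) and 4 (no filter), and for the m6A change between times from 1 to 5 (DESeq2), 2 (prefix as a block) and 4 (without mice 8, 67 and 98). For m6A over input they moved from 170 to 57 with the mouse as a replicate block, 297 on the same mice without it, 759 (DESeq2), 343 (library size) and 20 to 417 when 1 library was left out. For the m6A minus input difference they moved from 0 to 1 with the replicate block and 2 with DESeq2. The replicate block changed no call of the 10 genes.

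All values here are log2 differences of genes that were not called. With library size scaling the signs that turned were Vcan 0.016 in m6A at 24 hours, Vcan -0.24, Hapln4 -0.052 and Tnr -0.12 in input at 24 hours, Vcan -0.0033 and Tnr -0.012 in input at 2 weeks, Hapln4 -0.12 in the m6A change between times. With the prefix as a block the signs that turned were Vcan 0.48 in m6A at 24 hours, Bcan 0.15, Hapln4 0.71 and Ptprz1 0.24 in m6A at 2 weeks, Bcan 0.13 in input at 24 hours, Hapln1 0.020 in input at 2 weeks, Tnr 0.029 in the m6A change between times. Within prefix 4 the signs that turned were Vcan 0.48 in m6A at 24 hours. Without the m6A libraries of mice 67 and 98 the signs that turned were Vcan 0.14 in m6A at 24 hours, Vcan -0.020 and Tnr 0.041 in the m6A change between times. Without those of mice 8, 67 and 98 the signs that turned were Vcan 0.32 in m6A at 24 hours, Vcan -0.17 in the m6A change between times. Within prefix 5 the signs that turned were Bcan 0.17, Hapln4 0.73 and Ptprz1 0.26 in m6A at 2 weeks. In m6A at each time, the fit within a prefix and the block fit take the treatment difference from the same libraries. Without a filter the signs that turned were Vcan -0.012 in input at 24 hours. With all labelled 24-hour input libraries the signs that turned were Tnr -0.18 in input at 24 hours. Within the input libraries that carry no prefix the signs that turned were Hapln1 0.023 in input at 2 weeks. With DESeq2 the signs that turned were Hapln4 -0.0034 in the m6A change between times. With the mouse as a replicate block the signs that turned were Bcan -0.26, Ncan -0.24, Hapln4 -0.17 and Tnr -0.040 in m6A over input, Ncan 0.0090 in the m6A minus input difference. On the mice with both libraries and no replicate block the signs that turned were Bcan -0.25, Ncan -0.25, Hapln4 -0.12, Tnr -0.032 and Tnc -0.026 in m6A over input, Ncan 0.046 in the m6A minus input difference. When 1 library was left out, the ranges that crossed 0 were Hapln4 -0.49 to 0.060 in m6A at 24 hours, Vcan -0.21 to 0.16 in m6A at 24 hours, Hapln4 -0.40 to 0.13 in m6A at 2 weeks, Ptprz1 -0.16 to 0.046 in m6A at 2 weeks, Ncan -0.21 to 0.33 in m6A at 2 weeks, Tnc -0.16 to 0.74 in m6A at 2 weeks, Vcan -0.051 to 0.19 in input at 24 hours, Hapln4 -0.17 to 0.44 in input at 24 hours, Tnr -0.076 to 0.44 in input at 24 hours, Bcan -0.34 to 0.41 in input at 24 hours, Vcan -0.076 to 0.11 in input at 2 weeks, Hapln1 -0.12 to 0.020 in input at 2 weeks, Tnr -0.073 to 0.076 in input at 2 weeks, Tnr -0.28 to 0.071 in the m6A change between times, Hapln4 -0.24 to 0.35 in the m6A change between times, Ncan -0.71 to 0.034 in the m6A change between times, Vcan -0.030 to 0.34 in the m6A change between times, Vcan -0.019 to 0.20 in the m6A minus input difference.

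Input at 24 hours without PBS mouse 1, and m6A over input with the prefix as a block, could not be fitted and were not run.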
